A study of Homo sapiens with 10 samples.

Results

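NF-kB is a family of transcription factors built from 5 subunit genes, NFKB1, NFKB2, REL, RELA and RELB, and it is held in check by inhibitors of the IkB family. The 10 genes described here are these 5 subunits, the IkB genes NFKBIA, NFKBIB and NFKBIE, and the feedback genes TNFAIP3 and BIRC3. They were chosen by symbol, and each of the 10 symbols named 1 row among the 57993 different symbols of the deposited tables. All 10 passed the filter on low values that left 17779 genes for testing.

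RNA was measured in HCT116, a human colorectal carcinoma line, and in an HCT116 derivative labelled KDM5A-/-, both bought from a supplier. KDM5A is a demethylase of lysine 4 of histone H3, a mark of active promoters. The groups were KDM5A-/- cells with a plasmid for a mutant KDM5A (2 libraries), KDM5A-/- cells with a plasmid for wild-type KDM5A (3 libraries), KDM5A-/- cells with empty vector (3 libraries) and parental cells, labelled wild type, with empty vector (2 libraries). In all 4 groups the cells were sorted for GFP 24 hours after transfection, so every group had been transfected, and no age or stimulus is given. The labels do not name the mutation or say how many clones the knockout line holds. Per the labels the knockout culture alone was kept in G418, at 300.0 µg per ml, so knockout, clone and drug cannot be told apart. The labels do not say whether replicate libraries are separate cultures, so p-values cover only how far these libraries spread, which may be technical.

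In resting cells the IkB proteins keep NF-kB dimers in the cytoplasm. Signals from receptors such as the TNF receptor activate the IKK kinases, which mark IkB for destruction, and the freed dimers enter the nucleus and switch on target genes. NFKBIA, NFKBIE, TNFAIP3, BIRC3, NFKB1, NFKB2, REL and RELB are known as targets of the pathway themselves, so that it feeds back on its own inhibitors and subunits. In the colon epithelium NF-kB is known for its part in inflammation and in the survival of tumour cells.

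KDM5A itself stood at 23346 and 22816 in the mutant libraries, 13452.5, 16237 and 15598 in the wild-type libraries, 12.2, 15.3 and 12.3 in the empty-vector knockout libraries and 13.3 and 17.7 in the parental libraries. All levels given here are linear FPKM-type values per gene length, scaled between libraries. The knockout and parental levels of KDM5A overlapped (log2 fold change -0.20, SE 0.13, adjusted p = 0.391 in limma), so the value over the whole gene checks the plasmid labels and not the knockout label, and a level cannot show which part of a gene was read. The tables hold no read counts, and the depth behind a value is unknown. In 3 libraries, both with mutant KDM5A and parental library 2, the share of protein-coding genes was 87.3% to 88.2%, against 90.0% to 90.5% in the other 7, and that of ribosomal protein genes 15.04% to 15.6%, against 12.5% to 13.8%. The 6 epithelial markers EPCAM, KRT8, KRT18, CDH1, CDX2 and CLDN4 were present in every library, with CDX2 the lowest at 12.5 to 18.9. Among markers of other cells, CD3E, COL1A2 and DCN had a median of 0 over the libraries, PTPRC reached at most 0.706, and COL1A1, at 13.5 to 28.7, was the highest.

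The comparison of knockout with parental cells, both with empty vector, asks how the line labelled KDM5A-/- differs from its parent. NF-kB genes were higher in the knockout cells almost throughout. Of the 10 genes, 8 rose and 0 fell, where 4.84% of all 17779 genes tested were called higher, 4.09% lower and 8.94% in either direction. The median log2 fold change was 0.47 over the 10 genes and 0.0027 over all genes tested. The libraries of both groups did not overlap for 9 of the 10 genes, all higher in the knockout cells, against 21.9% of all genes higher and 20.6% lower without overlap.

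The largest difference was in BIRC3 (chromosome 11, 102317450 to 102339403, GRCh38, plus strand), which encodes cIAP2, a ubiquitin ligase that passes the TNF receptor signal on and restrains cell death. BIRC3 was 11.7, 12.1 and 12.9 in the knockout libraries, against 5.62 and 5.42 in the parental libraries. Every knockout library lay above every parental library, and the means of 12.2 ± 0.642 (SD, n = 3) and 5.52 ± 0.143 (SD, n = 2) stood 2.22-fold apart (log2 fold change 1.02, SE 0.13, adjusted p = 0.00283). TNFAIP3 (chromosome 6, 137867188 to 137883312, plus strand) encodes A20, a ubiquitin-editing enzyme that shuts the pathway down. TNFAIP3 was 20.1, 17.4 and 18.9 in the knockout libraries, against 10.8 and 9.90 in the parental libraries. The groups were well apart, with a ratio of means of 1.81 (log2 fold change 0.80, SE 0.11, adjusted p = 0.00454). A locus that overlaps TNFAIP3 by 1046 bases, RP11-356I2.4, stood at 0.912 or less in every library.

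NFKBIA (chromosome 14, 35401511 to 35404749, minus strand) encodes IkB alpha, the inhibitor that is destroyed and made anew fastest after a signal. NFKBIA was 115, 117 and 109 in the knockout libraries, against 64.1 and 67.3 in the parental libraries, a ratio of means of 1.73 (log2 fold change 0.78, SE 0.075, adjusted p = 0.000934). NFKBIB (chromosome 19, 38899700 to 38908893, plus strand), which encodes the slower inhibitor IkB beta, was 88.2, 93.7 and 92.2 in knockout libraries, against 69.8 and 68.2 in parental libraries. The NFKBIB groups did not overlap either, and the rise passed the test (log2 fold change 0.40, SE 0.052, adjusted p = 0.00282). The NFKBIB locus shares 163 bases with SIRT2 on the other strand, whose deposited value was 12.7 to 13.5 in the knockout and 12.9 to 14.3 in the parental libraries. The strand setting of the counting is not given in the sources used here. NFKBIE (chromosome 6, 44258166 to 44265788, minus strand), which encodes IkB epsilon, was 25.8, 23.9 and 24.1 in the knockout libraries, against 19.4 and 19.3 in the parental libraries. Its rise was smaller (log2 fold change 0.33, SE 0.065, adjusted p = 0.0170).

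Among the subunits RELB (chromosome 19, 45001430 to 45038194, plus strand), the partner of the NFKB2 product in the noncanonical branch, showed the largest called rise. RELB was 69.3, 68.8 and 67.5 in the knockout libraries, against 49.1 and 40.1 in the parental libraries (log2 fold change 0.62, SE 0.079, adjusted p = 0.00276). The parental libraries differed from each other more than the knockout libraries did, and both lay below them. NFKB1 (chromosome 4, 102501329 to 102617302, plus strand), the precursor of p50, was 39.9, 40.5 and 44.5 in the knockout libraries, against 31.5 and 31.2 in the parental libraries (log2 fold change 0.39, SE 0.070, adjusted p = 0.0115). NFKB2 (chromosome 10, 102394110 to 102402529, plus strand), the precursor of p52 and at 183 to 230.2 the highest of the 10 genes in every library, was 219, 229 and 223 in the knockout libraries, against 183 and 189 in the parental libraries (log2 fold change 0.27, SE 0.050, adjusted p = 0.0135). NFKB1 and NFKB2 thus lay above the parental range in each knockout library.

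REL and RELA did not pass. REL (chromosome 2, 60881521 to 60931610, plus strand) encodes c-Rel, best known from lymphocytes, and REL was 8.10, 9.98 and 10.1 in the knockout libraries, against 5.48 and 6.77 in the parental libraries (log2 fold change 0.54, SE 0.15, adjusted p = 0.0579). Its groups did not overlap, but REL has the widest error of the 10 genes, and its locus shares 5702 bases with another listed locus, RP11-373L24.1, at 3.38 to 4.77 in the knockout and 2.61 to 2.78 in the parental libraries as deposited. RELA (chromosome 11, 65653596 to 65663094, minus strand), the p65 subunit of the canonical dimer, was 78.3, 82.4 and 80.02 in the knockout libraries, against 79.6 and 71.6 in the parental libraries (log2 fold change 0.086, SE 0.057, adjusted p = 0.385). RELA was the only 1 of the 10 genes whose groups overlapped in this comparison.

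BIRC3, TNFAIP3, NFKBIA, NFKBIB and RELB passed under each of the 20 alternative settings run for this comparison. Settings without a parental library leave 1 library in that group, with the spread taken from the other groups. Without parental library 2, the library that stood apart, 6 of the 10 genes passed, and NFKB1 (log2 fold change 0.39, adjusted p = 0.0615) and NFKBIE (0.32, adjusted p = 0.0804) did not. Leaving out a knockout library, the adjusted p of NFKBIE was 0.0524 without the first and 0.0502 without the third, and that of NFKB2 was 0.0528 without the second and 0.0518 without the third. When only the empty-vector knockout and parental libraries were fitted, NFKBIE (adjusted p = 0.0696) and NFKB2 (adjusted p = 0.0604) both missed the threshold. REL passed with a filter at a mean of 5 (adjusted p = 0.0469), after quantile normalization (adjusted p = 0.0395) and as deposited (adjusted p = 0.0380). The summed leukocyte markers were 1.30 to 2.27 in the knockout and 1.92 to 2.35 in the parental libraries, the fibroblast markers 20.7 to 28.8 and 15.1 to 22.6, and the endothelial markers 0.237 to 0.431 and 0.375 to 0.646. Nearly all of the fibroblast sums was COL1A1, at 20.2 to 28.7 in the knockout and 14.9 to 22.3 in the parental libraries.

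**Figure D1:**
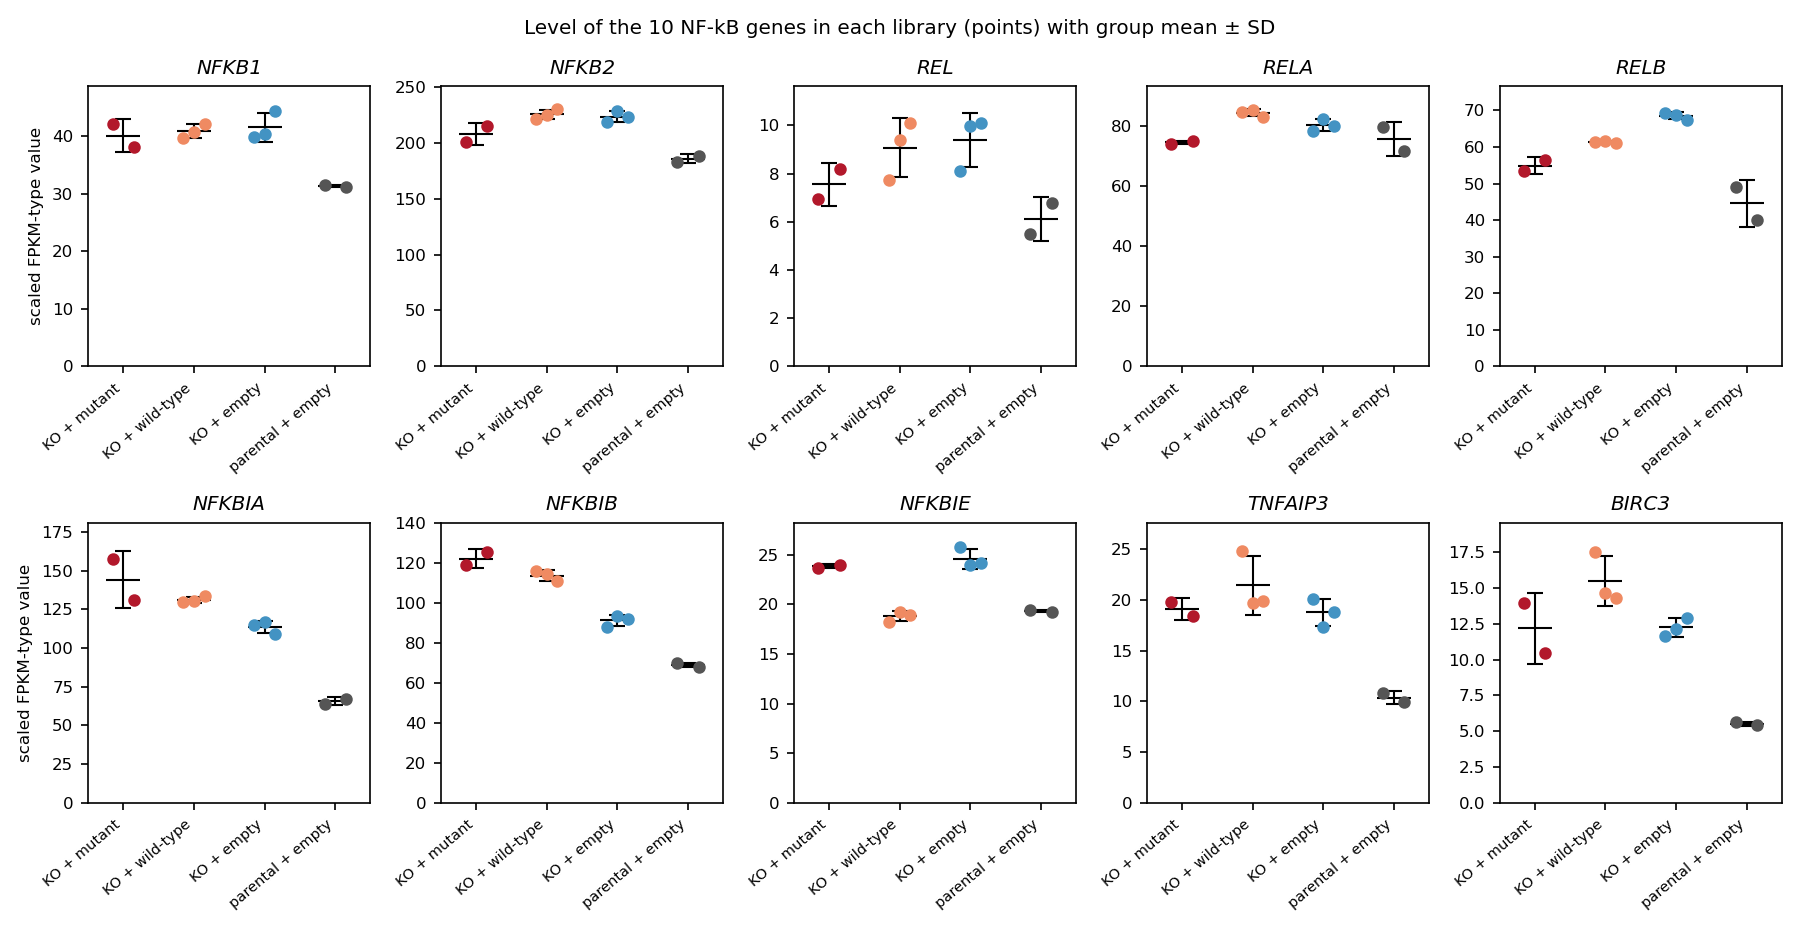
Scaled FPKM-type value (y axis, from 0) of each of the 10 NF-kB genes in every library, with KO for KDM5A-/- cells; points are libraries, and bars are the group mean ± SD (n = 2, 3, 3 and 2 from left to right). The parental libraries have the lowest mean for 8 of the 10 genes; the exceptions are RELA, where the parental libraries span 71.6 to 79.6, and NFKBIE, where they sit beside the wild-type KDM5A libraries at about 19.3.

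Promoter sequences are shown for the genes with the largest differences, BIRC3, TNFAIP3 and NFKBIA, for NFKBIB, and for RELA as the gene that differed least. They come from RefSeq (GRCh38.p14) and run from 250 bases before to 50 bases after an annotated start, 5′ to 3′ on the strand of the gene. Capitals mark matches to the 10-base NF-kB consensus motif, searched on both strands.
BIRC3, chr11:102317234-102317533, plus strand: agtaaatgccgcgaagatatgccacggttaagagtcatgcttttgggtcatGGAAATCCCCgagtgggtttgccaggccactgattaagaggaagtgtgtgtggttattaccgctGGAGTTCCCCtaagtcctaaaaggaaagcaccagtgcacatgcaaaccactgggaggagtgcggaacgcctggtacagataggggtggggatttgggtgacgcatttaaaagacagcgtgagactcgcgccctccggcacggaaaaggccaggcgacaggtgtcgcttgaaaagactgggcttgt
TNFAIP3, chr6:137867009-137867308, plus strand: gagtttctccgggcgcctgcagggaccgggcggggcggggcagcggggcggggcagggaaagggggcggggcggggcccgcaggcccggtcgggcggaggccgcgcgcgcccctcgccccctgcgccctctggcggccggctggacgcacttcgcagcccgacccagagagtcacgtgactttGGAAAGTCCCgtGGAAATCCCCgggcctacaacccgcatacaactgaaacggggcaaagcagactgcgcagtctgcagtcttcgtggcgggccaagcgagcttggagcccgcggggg
NFKBIA, chr14:35404700-35404999, minus strand: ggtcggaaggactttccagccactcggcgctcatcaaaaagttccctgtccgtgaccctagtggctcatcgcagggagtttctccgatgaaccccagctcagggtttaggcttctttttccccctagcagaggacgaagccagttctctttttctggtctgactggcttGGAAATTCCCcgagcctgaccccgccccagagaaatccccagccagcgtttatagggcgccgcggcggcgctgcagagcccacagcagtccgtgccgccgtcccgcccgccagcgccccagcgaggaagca
NFKBIB, chr19:38899719-38900018, plus strand: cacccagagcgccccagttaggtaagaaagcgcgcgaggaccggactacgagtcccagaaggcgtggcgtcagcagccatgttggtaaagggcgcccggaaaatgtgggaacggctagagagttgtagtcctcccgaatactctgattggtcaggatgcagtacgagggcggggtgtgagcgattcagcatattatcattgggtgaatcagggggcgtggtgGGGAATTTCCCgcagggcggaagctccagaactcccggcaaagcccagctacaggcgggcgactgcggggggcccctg
RELA, chr11:65662867-65663166, minus strand: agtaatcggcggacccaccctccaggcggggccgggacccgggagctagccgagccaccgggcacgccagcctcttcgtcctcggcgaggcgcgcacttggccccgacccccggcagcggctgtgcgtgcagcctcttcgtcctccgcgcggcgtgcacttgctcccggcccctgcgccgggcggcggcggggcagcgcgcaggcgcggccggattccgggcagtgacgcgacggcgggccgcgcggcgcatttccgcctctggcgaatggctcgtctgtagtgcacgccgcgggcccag

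With positions counted from the start, BIRC3 held the motif at -199 and -135, on the opposite strand both times. TNFAIP3 held it at -67 and -55, a pair separated by a few letters, and NFKBIA at -81. In the NFKBIB window shown the match at -28 overlaps another at -27 on the other strand, since the motif is close to a palindrome. The other NFKBIB window held 0 matches. No match stood in either RELA window. Windows were listed for 8 of the 10 genes (all but RELB and NFKBIE), and 7 of these 8 held a match in at least 1 window, against 7.09% of the 27305 symbols in the promoter table. Counted by window, 8 of the 13 windows of these genes held a match, against 5.91% of all 35116 windows. A match is a description of the letters, and such sites are part of how several of these genes became known as NF-kB targets.

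The comparison of knockout cells carrying wild-type KDM5A with parental cells asks how the genes stood with KDM5A supplied from a plasmid. The mean KDM5A level there was 975 times the parental mean. It is therefore not a comparison at the parental level of KDM5A. Most NF-kB genes stayed above the parental level. Of the 10 genes, 7 were higher and 0 lower, against 8.03% of all genes higher, 6.52% lower and 14.5% in either direction, and the median log2 fold change was 0.48 over the 10 genes and -0.0032 over all genes. This comparison shares its parental libraries with the comparison above. BIRC3 was 17.5, 14.6 and 14.3 with wild-type KDM5A, against 5.62 and 5.42 in parental cells (log2 fold change 1.33, SE 0.13, adjusted p = 0.000515). NFKBIA was 129.8, 130.3 and 133 with wild-type KDM5A, against 64.1 and 67.3 in parental cells (log2 fold change 0.99, SE 0.075, adjusted p = 0.000130). For both genes each library with wild-type KDM5A lay above each parental library by a wide margin. Without overlap 9 of the 10 genes were higher and 1 lower (NFKBIE), against 23.3% of all genes higher and 23.5% lower. The NFKBIE groups all but touched, at 19.256 in the highest wild-type library and 19.266 in the lowest parental library.

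TNFAIP3 was 24.8, 19.7 and 19.9 with wild-type KDM5A, against 10.8 and 9.90 in parental cells, with 1 high library of wild-type KDM5A (log2 fold change 0.98, SE 0.11, adjusted p = 0.00111). NFKBIB (0.71, adjusted p = 9.45e-05), RELB (0.46, adjusted p = 0.00638), NFKB1 (0.37, adjusted p = 0.00973) and NFKB2 (0.28, adjusted p = 0.00755) were also higher. NFKB1 missed the threshold narrowly without parental library 2 (adjusted p = 0.05001). REL (0.50, adjusted p = 0.0587) and RELA (0.16, adjusted p = 0.0986) did not pass, but REL passed with a filter at a mean of 5 (adjusted p = 0.0492) and after quantile normalization (adjusted p = 0.0336), and RELA without parental library 1 (0.23, adjusted p = 0.0332). NFKBIE was the exception among the IkB genes: 18.2, 19.3 and 18.9 with wild-type KDM5A, against 19.4 and 19.3 in parental cells. Its log2 fold change was -0.040, with a 95% interval of -0.19 to 0.11 (adjusted p = 0.731).

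Wild-type KDM5A was next compared with empty vector within the knockout cells, which asks what adding the protein changed. An inhibitor gene rose and another fell. Of the 10 genes 1 was higher and 1 lower, against 2.52% of all genes higher, 2.02% lower and 4.54% in either direction. The median log2 fold change was 0.042 over the 10 genes and 0.00074 over all genes. NFKBIB was 116, 115 and 111 with wild-type KDM5A, against 88.2, 93.7 and 92.2 with empty vector (log2 fold change 0.31, SE 0.046, adjusted p = 0.00957). NFKBIE was 18.2, 19.3 and 18.9 with wild-type KDM5A, against 25.8, 23.9 and 24.1 with empty vector (log2 fold change -0.37, SE 0.058, adjusted p = 0.0122). Neither pair of groups overlapped, and these IkB genes moved in opposite directions. SIRT2, whose locus overlaps NFKBIB, stood as deposited at 14.8, 16.2 and 13.4 with wild-type KDM5A, against 12.7, 13.5 and 13.1 with empty vector. Its part in the NFKBIB value was not tested.

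Both calls were narrow. NFKBIB missed the threshold without wild-type library 1 (adjusted p = 0.0504) or 2 (adjusted p = 0.0508) and on the values as deposited (0.20, adjusted p = 0.149). NFKBIE missed it when empty-vector library 3 (adjusted p = 0.0519) or any of the wild-type libraries (adjusted p = 0.0625, 0.0508 and 0.0531) was left out, with log2 fold changes between -0.39 and -0.34 whichever library was left out. On the values as deposited the median of all genes was -0.10 in this comparison, -0.30 for mutant KDM5A against empty vector and -0.20 for mutant against wild-type KDM5A, and log2 fold changes are read relative to these shifts. The split of calls over all genes was 448 higher and 359 lower, and without the scaling 123 higher and 613 lower.

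NFKBIA (129.8, 130.3 and 133 with wild-type KDM5A, against 115, 117 and 109 with empty vector) and BIRC3 (17.5, 14.6 and 14.3, against 11.7, 12.1 and 12.9) did not overlap between the groups and yet missed the threshold. Their log2 fold changes were 0.21 (SE 0.067, adjusted p = 0.122) and 0.31 (SE 0.12, adjusted p = 0.180). RELB, lower with wild-type KDM5A in each library at 61.4, 61.8 and 61.2, against 69.3, 68.8 and 67.5 with empty vector, missed it as well (log2 fold change -0.15, SE 0.071, adjusted p = 0.259). Both NFKBIA (adjusted p = 0.0227) and RELB (adjusted p = 0.0385) passed when only the libraries of these groups were fitted, and when both mutant libraries and parental library 2 were left out (adjusted p = 0.0242 and 0.0404). NFKBIA also passed with array weights (adjusted p = 0.0272) and without mutant library 1 (adjusted p = 0.0389) or 2 (adjusted p = 0.0382). Groups that do not overlap were common among all genes here, at 16.4% higher and 16.2% lower. NFKB1 (-0.022), NFKB2 (0.012), REL (-0.046), RELA (0.072) and TNFAIP3 (0.18) had adjusted p-values between 0.370 and 0.921, and the sign of NFKB2 and RELA turned on the values as deposited.

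Mutant KDM5A was compared with empty vector in the same way. Here 2 IkB genes rose and RELB fell, in libraries whose make-up stood apart. Of the 10 genes 2 were higher and 1 lower, against 9.48% of all genes higher, 7.05% lower and 16.5% in either direction. The median log2 fold change was -0.047 over the 10 genes and -0.0071 over all genes. NFKBIB was 119 and 126 with mutant KDM5A, against 88.2, 93.7 and 92.2 with empty vector (log2 fold change 0.42, SE 0.052, adjusted p = 0.00292). NFKBIA was 157 and 131 with mutant KDM5A, against 115, 117 and 109 with empty vector (log2 fold change 0.34, SE 0.075, adjusted p = 0.0184). The mutant libraries lay apart from each other in NFKBIA and above every empty-vector library in both genes. SIRT2, whose locus overlaps NFKBIB, stood as deposited at 12.7 and 14.3 with mutant KDM5A, against 12.7, 13.5 and 13.1 with empty vector. On that scale the median of all genes was -0.30, and the part of SIRT2 in the NFKBIB value was not tested. Without overlap 2 of the 10 genes were higher and 3 lower (NFKB2, RELA and RELB), against 23.3% of all genes higher and 23.6% lower. These counts without overlap, and the 1 lower call, were near the shares of all genes and do not stand out from them.

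RELB was 53.3 and 56.5 with mutant KDM5A, against 69.3, 68.8 and 67.5 with empty vector (log2 fold change -0.32, SE 0.079, adjusted p = 0.0282). On the values as deposited NFKBIA was level (-0.00033), NFKBIB was 0.079 (adjusted p = 0.470) and RELB -0.65, beside the shift of all genes by -0.30. On that scale 0 of the 10 genes were higher and 6 lower in limma, so the rises of both IkB genes are relative to the other genes of a library. NFKBIA lost the call after quantile normalization (0.19, adjusted p = 0.0983), without empty-vector library 3 (adjusted p = 0.0633) and without mutant library 1 (0.21, adjusted p = 0.0866). RELB lost it when any of the 3 empty-vector libraries was left out (adjusted p = 0.0676, 0.0752 and 0.0682), when mutant library 1 was (adjusted p = 0.134) and with no filter on low values (adjusted p = 0.0596), and NFKBIA when only the mutant and empty-vector libraries were fitted (adjusted p = 0.0583). The split of calls over all genes was 1685 higher and 1254 lower, 458 higher and 6150 lower without the scaling, and 888 higher and 1223 lower after quantile normalization.

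The other 7 genes did not pass. NFKBIE was 23.7 and 24.0 with mutant KDM5A, against 25.8, 23.9 and 24.1 with empty vector (log2 fold change -0.043, adjusted p = 0.688). BIRC3 was 13.9 and 10.4 with mutant KDM5A, against 11.7, 12.1 and 12.9 with empty vector, so that the mutant libraries lay on either side of the empty-vector range. The log2 fold changes of NFKB1, NFKB2, REL, RELA and TNFAIP3 were -0.050, -0.10, -0.28, -0.11 and 0.026, with adjusted p-values between 0.183 and 0.899. NFKB2 passed after quantile normalization (-0.34, adjusted p = 0.00839). As deposited, NFKB1 (-0.38), NFKB2 (-0.44), REL (-0.58), RELA (-0.44) and NFKBIE (-0.37) passed as lower, beside the shift of all genes. TNFAIP3 was of the other sign on the values as deposited (-0.30), and BIRC3 (-0.019) after quantile normalization (0.021).

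**Figure D2:**
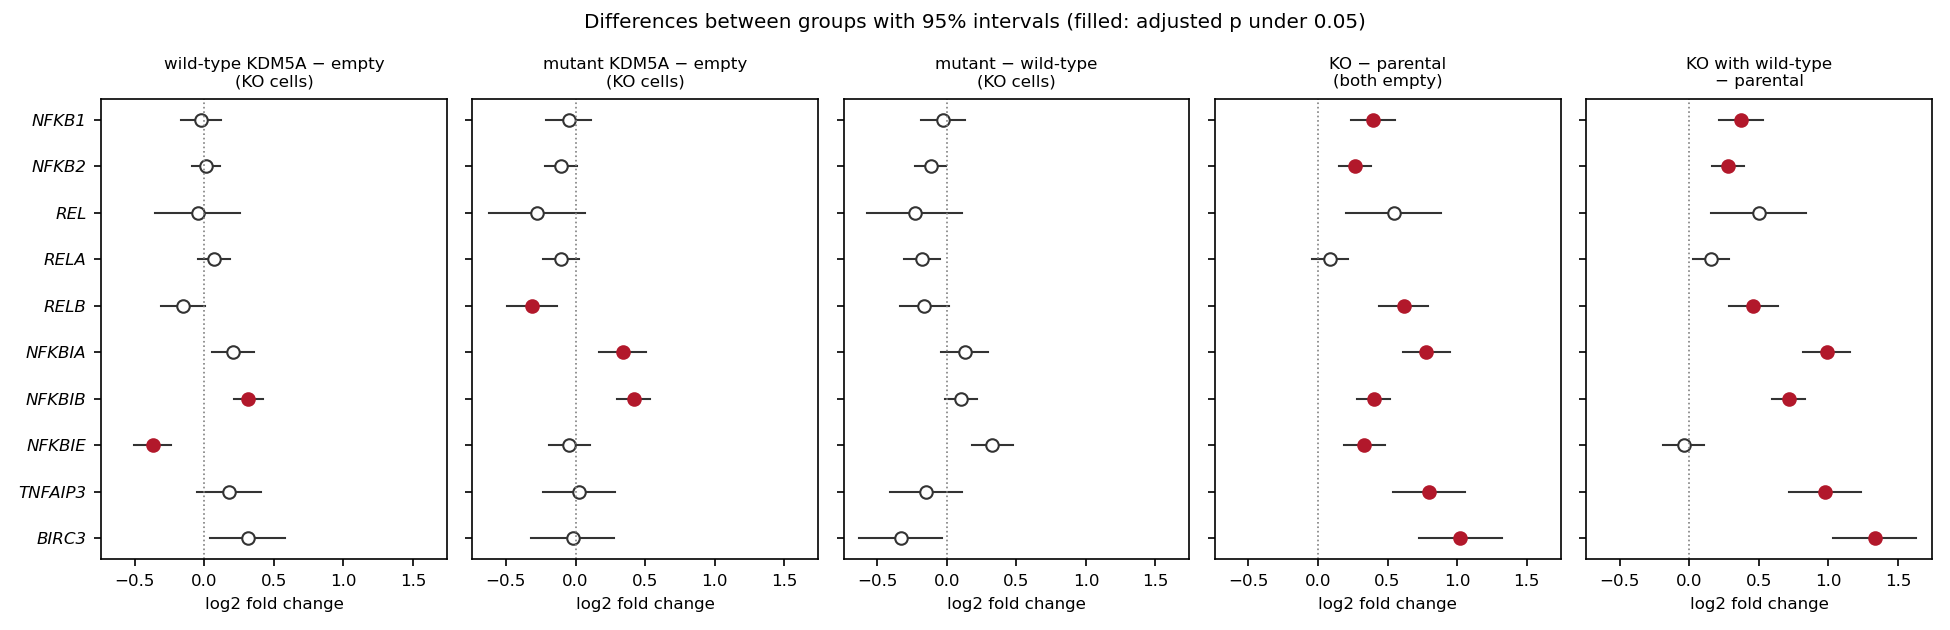
Log2 fold change (x axis) of the 10 genes in the 5 comparisons, the first group named minus the second, with 95% intervals from the limma fit; filled points passed an adjusted p under 0.05. In the comparison of knockout with parental cells 8 of the 10 points are filled and lie to the right of 0, and in the comparison of mutant with wild-type KDM5A 0 are filled.

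The direct comparison of mutant with wild-type KDM5A called 0 of the 10 genes in limma. The mean KDM5A level was 1.53 times as high in the mutant as in the wild-type libraries. Both mutant libraries were also among those whose make-up stood apart. Mutation, KDM5A level and make-up therefore cannot be told apart here. Over all genes the comparison called 0.0337% higher, 0.0225% lower and 0.0562% in either direction. Of the 10 genes 4 had an unadjusted p under 0.05 (NFKBIE, RELA, BIRC3 and NFKB2). The share of all genes at that unadjusted threshold is not given here, so the 4 cannot be read against it. The median log2 fold change was -0.13 over the 10 genes and -0.00059 over all genes. NFKBIE came closest: it was 23.7 and 24.0 with mutant KDM5A, against 18.2, 19.3 and 18.9 with wild-type KDM5A. Its log2 fold change was 0.33 (95% interval 0.18 to 0.47, adjusted p = 0.0895), and it passed without parental library 1 (adjusted p = 0.0324) or 2 (adjusted p = 0.0305), which belong to neither group, and with no filter on low values (adjusted p = 0.0435). RELA was 74.1 and 75.0 with mutant KDM5A, against 84.6, 85.5 and 83.0 with wild-type KDM5A (log2 fold change -0.18, 95% interval -0.31 to -0.048, adjusted p = 0.143). As deposited RELA (-0.40, adjusted p = 0.0409) and NFKB2 (-0.34, adjusted p = 0.0388) passed, beside the shift of all genes by -0.20. BIRC3 had a log2 fold change of -0.33 (95% interval -0.63 to -0.032, adjusted p = 0.209). The intervals of the other 7 genes lay between -0.57 and 0.30, so that differences of that size remain possible. For all genes the split was 6 higher and 4 lower, 107 higher and 1383 lower without the scaling, and 5 higher and 1 lower after quantile normalization.

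Summed by role, the genes separated the groups in another way. The 5 subunits together stood at 378 and 393 with mutant KDM5A, 415, 423 and 427 with wild-type KDM5A, 415, 431 and 425 in the empty-vector knockout libraries and 349 and 339 in the parental libraries. The 3 IkB genes together stood at 299.96 and 281 with mutant KDM5A, 264, 264 and 263 with wild-type KDM5A, 229, 234 and 225 in the empty-vector knockout libraries and 153 and 155 in the parental libraries. On this scale the IkB sums did not overlap between any groups, whereas the subunit sums of the wild-type and empty-vector libraries did. On the values as deposited the IkB sums were 253 and 245 with mutant KDM5A, 271, 261 and 262 with wild-type KDM5A, 244, 259.7 and 244 in the empty-vector knockout libraries and 167 and 149 in the parental libraries, so that the mutant libraries overlapped the empty-vector libraries and lay below the wild-type libraries. TNFAIP3 and BIRC3 together stood at 33.8 and 28.8 with mutant KDM5A, 42.4, 34.3 and 34.2 with wild-type KDM5A, 31.8, 29.5 and 31.8 in the empty-vector knockout libraries and 16.5 and 15.3 in the parental libraries. The parental libraries lay below and the wild-type libraries above those of every other group, but as deposited the wild-type libraries (43.4, 33.9 and 34.1) overlapped the empty-vector libraries (33.9, 32.7 and 34.4).

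The order of the genes by level per length also differed. NFKB2 led in every library, and NFKBIE, TNFAIP3, BIRC3 and REL were the 4 lowest. In the 8 knockout libraries NFKBIA and NFKBIB both stood above RELA (88.2 or more, against 85.5 or less for RELA), whereas in both parental libraries RELA (79.6 and 71.6) stood above NFKBIB (69.8 and 68.2) and NFKBIA (64.1 and 67.3). BIRC3 lay above REL in each knockout library. In the parental libraries the BIRC3 values of 5.62 and 5.42 overlapped those of REL, 5.48 and 6.77.

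The ratio of the IkB sum to the subunit sum within a library is free of the scaling between libraries. It was 0.795 and 0.714 with mutant KDM5A, 0.636, 0.625 and 0.617 with wild-type KDM5A, 0.552, 0.544 and 0.529 in the empty-vector knockout libraries and 0.440 and 0.457 in the parental libraries. The 4 groups followed each other without overlap, from mutant KDM5A down to the parental cells. This ratio was formed after the values of its members were known and is given as a description. NFKB2 made up 52.5% to 55.8% of the subunit sum in every library, and NFKBIA 46.7% to 52.4% of the IkB sum in the knockout libraries of all kinds against 41.8% and 43.5% in the parental libraries.

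**Figure D3:**
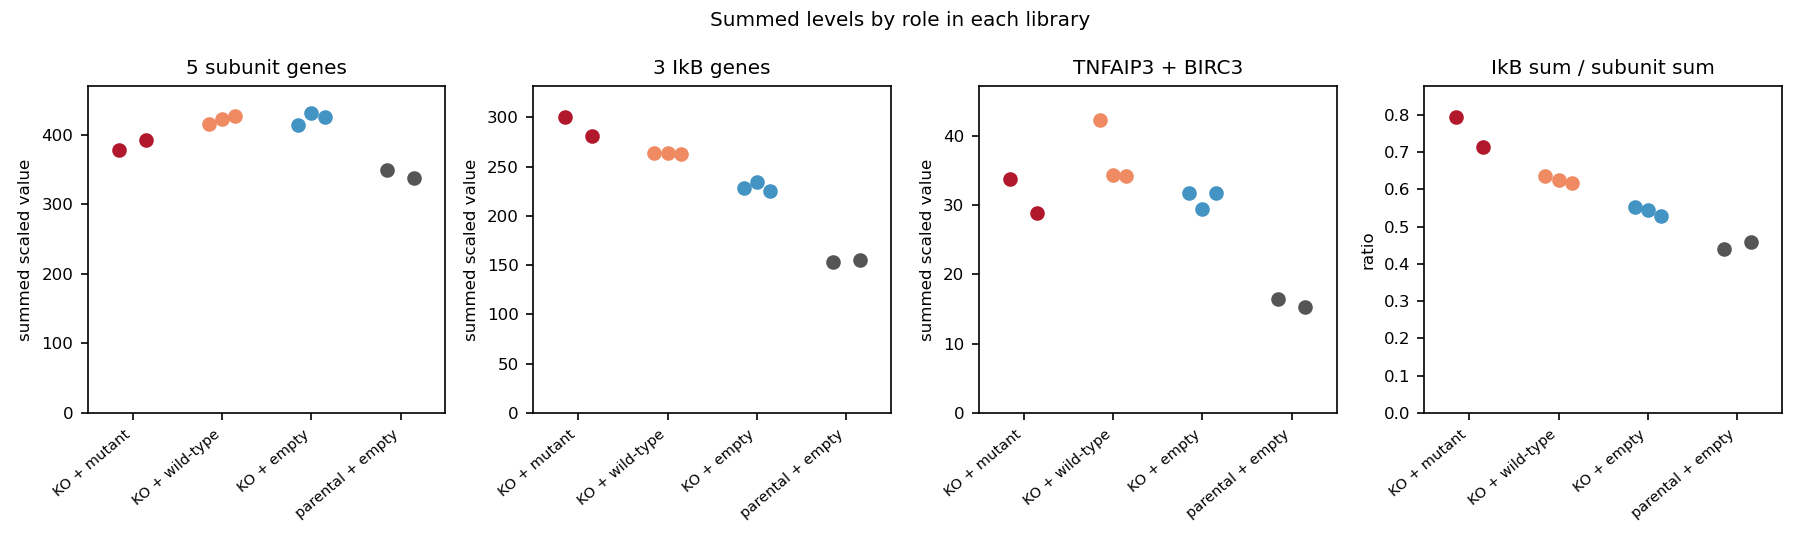
Summed scaled values (y axes, from 0) of the 5 subunit genes, the 3 IkB genes and the 2 feedback genes TNFAIP3 and BIRC3, and the ratio of the IkB sum to the subunit sum; each point is a library, and KO stands for KDM5A-/- cells. The ratio falls into 4 separate groups, from 0.714 to 0.795 with mutant KDM5A to 0.440 to 0.457 in parental cells.

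Other genes of the pathway were followed in 4 lists, whose counts are to be read against the shares of all genes called: 2.52% higher and 2.02% lower for wild-type KDM5A against empty vector, 9.48% and 7.05% for mutant against empty vector, 4.84% and 4.09% for knockout against parental cells, and 8.03% and 6.52% for wild-type KDM5A against parental cells. Of the receptor and ligand list, 13 of 23 genes passed the filter, and among those left out as low were TNF and IL1B, which encode the main cytokines that start the pathway. In knockout against parental cells 0 of these 13 passed in limma, with 2 at an unadjusted p under 0.05. The share of all genes at that unadjusted threshold is not given here. The 13 had a median log2 fold change of -0.045. CD40, a receptor that feeds the noncanonical branch, had -0.26 (adjusted p = 0.0908) and LTA, the ligand lymphotoxin alpha, 0.47 (adjusted p = 0.105). LTA was lower with wild-type KDM5A than with empty vector (log2 fold change -0.63, SE 0.14, adjusted p = 0.0414), at the low levels of 2.19 ± 0.228 (SD, n = 3) and 3.95 ± 0.362 (SD, n = 3). TNFRSF1A, the main TNF receptor, was lower with mutant KDM5A than with empty vector (-0.34, SE 0.075, adjusted p = 0.0179) and lower with wild-type KDM5A than in parental cells (-0.33, SE 0.075, adjusted p = 0.0209). Each of these was the only 1 of the 13 called in its comparison, where 4.54%, 16.5% and 14.5% of all genes were called in either direction, so single calls in so short a list do not stand out from all genes.

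All 25 signalling genes were tested. In knockout against parental cells 4 were higher and 0 lower, with a median of 0.073: MAP3K14 (0.51, adjusted p = 0.0106), which encodes the kinase NIK that starts the noncanonical branch, the adaptor BCL10 (0.41, adjusted p = 0.0154), RBCK1 of the linear ubiquitin ligase (0.20, adjusted p = 0.0333) and the kinase adaptor TAB3 (0.45, adjusted p = 0.0436). MAP3K14 was lower with wild-type KDM5A than with empty vector, at 20.1 ± 0.205 and 25.8 ± 0.499 (SD, n = 3 each; log2 fold change -0.34, adjusted p = 0.0482), the only 1 of the 25 called there. It was lower with mutant KDM5A too, at 17.8 ± 1.63 (SD, n = 2) (-0.51, SE 0.089, adjusted p = 0.00856). In that comparison CARD10, a scaffold that acts with BCL10, was lower (-0.50, adjusted p = 0.0220) and TRAF3, which keeps NIK low by targeting it for destruction, was higher (0.33, adjusted p = 0.0169). These 3 calls of 25 are a smaller share than the 16.5% of all genes called there. In wild-type KDM5A against parental cells 4 were higher and 0 lower, namely RBCK1 (0.33), BCL10 (0.51), TAB3 (0.50) and the kinase IRAK1 (0.32).

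Of the list of other inhibitors and atypical IkB genes, 18 of 19 were tested. In knockout against parental cells 4 were higher and 0 lower: ZC3H12A, an RNase that degrades inflammatory messages (0.70, adjusted p = 0.000948), CYLD, a deubiquitinase that dampens the pathway (0.52, adjusted p = 0.0205), the ubiquitin ligase ITCH (0.28, adjusted p = 0.0332) and NFKBIZ, a nuclear atypical IkB (0.68, adjusted p = 0.0408). With wild-type KDM5A against empty vector 3 were higher and 1 lower. ZC3H12A reached 38.4 ± 1.56 (SD, n = 3), against 21.9 ± 0.624 (SD, n = 3) with empty vector (0.78, SE 0.061, adjusted p = 0.000399). NFKBIZ reached 26.7 ± 5.42 (SD, n = 3), against 12.8 ± 1.55 (SD, n = 3) with empty vector (0.99, SE 0.15, adjusted p = 0.0112). TNIP2, a partner of A20, was also higher (0.27, adjusted p = 0.0456) and ITCH lower (-0.27, adjusted p = 0.0401).

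With mutant KDM5A against empty vector 4 of the 18 were higher and 1 lower, among them ZC3H12A (0.75, adjusted p = 0.000792), the A20 adaptor TAX1BP1 (0.34, adjusted p = 0.0143) and the atypical IkB gene NFKBID (0.36, adjusted p = 0.0313), with ITCH lower (-0.39, adjusted p = 0.00816), where 9.48% of all genes were called higher and 7.05% lower. In wild-type KDM5A against parental cells 6 were higher and 0 lower, led by ZC3H12A (1.48) and NFKBIZ (1.67), with TNIP2 (0.34) and TNIP1 (0.25).

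Of 30 target genes 22 were tested, and this list moved most. The lists were chosen with earlier results of these data known, so their counts are a description and not a test. With wild-type KDM5A against empty vector 10 were higher and 1 lower, with a median log2 fold change of 0.28, against 2.52% of all genes higher and 2.02% lower. With mutant KDM5A against empty vector 10 were higher and 1 lower, with a median of 0.31, against 9.48% of all genes higher and 7.05% lower. The smallest p-values belonged in both to the chemokines CXCL8 (2.36 with wild-type and 2.17 with mutant KDM5A) and CXCL3 (1.90 and 1.54), to SDC4, a cell surface proteoglycan (0.60 and 0.51), and to LCN2, an iron-binding antibacterial protein (1.65 and 1.54). The gene lower in both was BCL2L1 (-0.20 and -0.29), which encodes the survival protein BCL-XL. These comparisons share the empty-vector libraries. Beside them, the summed leukocyte markers were 5.00 to 7.10 with mutant KDM5A, 4.27 to 5.29 with wild-type KDM5A and 1.30 to 2.27 with empty vector. Most of each sum was CD14 (4.05 to 6.41, 3.87 to 4.79 and 1.17 to 1.88), while CD3E was at or near 0 throughout. With mutant KDM5A, PTPRC reached 0.706 and LYZ 0.554. The fibroblast markers summed to 13.6 to 15.4 with mutant KDM5A, 17.6 to 25.2 with wild-type KDM5A and 20.7 to 28.8 with empty vector, and the endothelial markers to 0.674 to 1.41, 0.508 to 0.816 and 0.237 to 0.431. The part of these in the changes of NF-kB genes was not tested.

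In knockout against parental cells the targets were mixed, with 8 higher and 4 lower of the 22 and a median of 0.27. CXCL8 was 28.6 ± 1.77 (SD, n = 3) in knockout cells and 16.04 ± 0.721 (SD, n = 2) in parental cells, with a log2 fold change of 0.79 (adjusted p = 0.00273). GADD45B, a stress-induced growth regulator (0.49), CXCL2 (1.31) and CXCL3 (0.68) were also higher. The 4 lower genes were chosen after their values were seen: ICAM1, a leukocyte adhesion molecule (-1.76, adjusted p = 0.00736), IER3 (-0.36), TNFAIP8 (-0.53) and BCL2L1 (-0.21). ICAM1 was low in both groups, at 0.557 in knockout and 4.18 in parental cells. In wild-type KDM5A against parental cells 12 targets were higher and 2 lower, with a median of 0.49 and CXCL8 (3.16), CXCL3 (2.58), SDC4 (0.76) and CXCL2 (2.71) at the smallest p-values; the lower genes, picked in the same way, were ICAM1 (-1.41) and BCL2L1 (-0.41). Over all genes the split of calls was 861 higher and 728 lower for knockout against parental cells, and 971 and 372 on the values as deposited. For wild-type KDM5A against parental cells it was 1427 higher and 1159 lower, and 791 and 1013 on the values as deposited.

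In mutant against wild-type KDM5A, limma called 0 of the signalling genes (7 at an unadjusted p under 0.05), 0 of the receptors and ligands (1), 0 of the other inhibitors (2) and 0 of the targets (3). The counts in brackets cannot be read against all genes, whose share at the unadjusted threshold is not given here. The smallest p-values were those of TRAF3 (0.30, adjusted p = 0.0943), IL1RAP, a subunit of the interleukin 1 receptor (-0.47, adjusted p = 0.228), NFKBIZ (-0.64, adjusted p = 0.103) and CXCL3 (-0.36, adjusted p = 0.119).

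**Figure D4:**
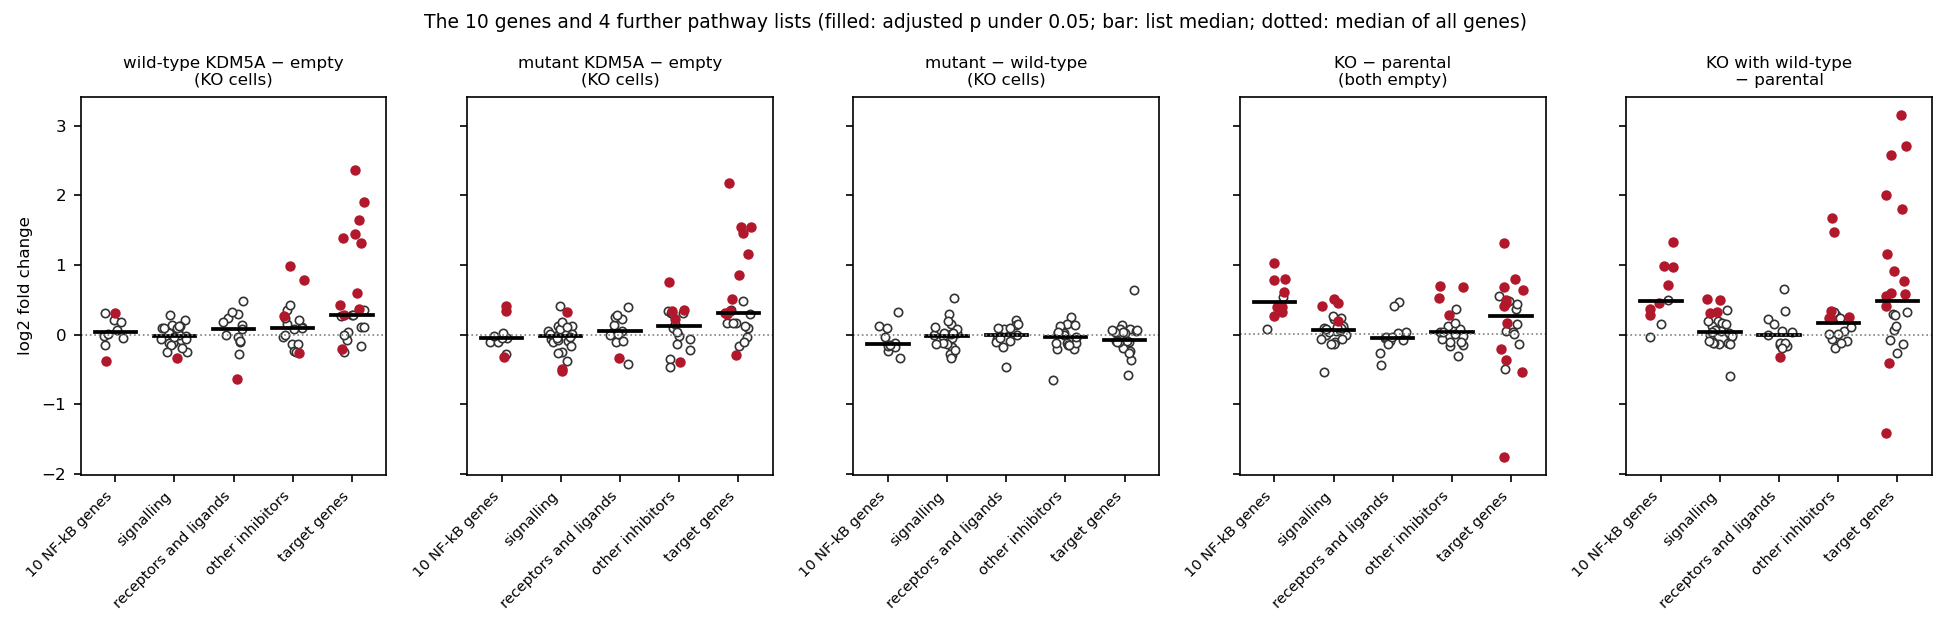
Log2 fold change (y axis) of the 10 NF-kB genes and of the tested genes of the 4 further lists in the 5 comparisons, the first group named minus the second; each point is a gene, filled where the adjusted p was under 0.05, the bar is the list median and the dotted line the median of all genes. The target genes reach 2.36 with wild-type and 2.17 with mutant KDM5A against empty vector, while the 10 NF-kB genes stay between -0.37 and 0.42 there and are shifted upward, to a median of 0.47, in knockout against parental cells.

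Across the 10 libraries the gene most like BIRC3 in its levels was SESN2 (Pearson r of log2 values 0.977), followed by TNFAIP3 (0.972), out of 11597 genes with a mean of at least 5. Most like TNFAIP3 were BAK1 (0.974), PPP1R14C (0.972) and BIRC3 (0.972). Most like NFKBIA were NOLC1 (0.991), PA2G4 (0.989) and CDC20 (0.983). The libraries share the 4 groups and their scaling, and the parental cells are low for each of these genes, so the values describe likeness in these 10 libraries only. NFKBIA correlated with NFKBIB (0.937), BIRC3 (0.911) and TNFAIP3 (0.909) as well. The level of NOLC1, most like NFKBIA, was 273 with mutant KDM5A, 258 with wild-type KDM5A, 241 with empty vector and 188 in parental cells.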

How the data were processed

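Total RNA of 10 libraries was sequenced. Each has a table in which the authors deposited, per locus, a log2 value that the file headers name FPKM. The log2 was taken of the value plus 1, and the linear values sum to the same total in every library to within rounding, so FPKM had been rescaled. The submitters' processing notes name Cufflinks 2.2.1, GATK 4.1.2, Picard, STAR 2.7.1a and GRCh38, without roles; annotation and strand setting are not given in the sources used here. Depth and counting precision are unknown.

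Values were made linear, summed per symbol, and divided by a median-ratio factor per library over 13651 genes at 1 or more in every library. Genes at 1 or more in at least 2 libraries were kept. limma 3.58.1 in R 4.3.3 (lmFit, contrasts.fit, eBayes with trend) was run on log2(scaled value + 1), so that fold changes of low genes are understated, with all 10 libraries in 1 fit, two-sided, Benjamini-Hochberg adjusted over 17779 genes in each of 5 comparisons, with 0.05 as the threshold. The fit was also run on simulated normal values as a check of the code only, and the outcome is not reported here. File starts were raised by 1 to match GENCODE 29. Python 3.11.15, pandas 2.3.3 and matplotlib 3.10.9 were used.

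The 10 genes, the 4 lists and the alternatives were chosen with earlier results of these data known. Named were the 10 genes, KDM5A, up to 4 genes of smallest p per list and comparison, and 3 genes most like NFKBIA, TNFAIP3 and BIRC3, of which 1 is not reported here. Alternatives were the deposited scale, quantile normalization, pseudocounts of 0.1 and 0.5, no filter, a mean of at least 5, array weights, only the libraries compared, a replicate block, each library left out, and both mutant libraries with parental library 2 left out.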

Additional observations from a re-analysis of the deposited data

How the results depend on the processing

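In knockout against parental cells and in wild-type KDM5A against parental cells the 10 genes kept the direction of their log2 fold changes under all 20 alternatives run for each. Genes called among the 10 ranged, with each library left out in turn, from 1 to 3 for mutant against empty vector, 0 to 1 for mutant against wild-type, 0 to 3 for wild-type against empty vector, 6 to 8 for wild-type against parental and 6 to 8 for knockout against parental. Over all genes these ranges were 1207 to 3496, 4 to 980, 180 to 1068, 1399 to 2997 and 636 to 1925 in the same order.

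Replicate numbers did not pair the libraries: deviations of same-numbered libraries correlated between -0.0892 and 0.0509 over 13 pairs. With the replicate block 1109 genes and 1 of the 10 passed for mutant against empty vector, 1 over all genes for mutant against wild-type, 214 and 1 for the wild-type plasmid against empty vector, 556 and 5 for knockout against parental, and 1370 over all genes for wild-type KDM5A against parental. On the values as deposited 6608 genes and 6 of the 10 passed for mutant against empty vector, 1490 and 2 for mutant against wild-type, and 1 of the 10 for the wild-type plasmid against empty vector. With only the libraries compared the counts were 372 genes for mutant against wild-type, 1795 genes and 4 of the 10 for wild-type KDM5A against empty vector, and 692 for knockout against parental. Without both mutant libraries and parental library 2 they were 1766 and 4, and 1055 genes for knockout against parental; mutant comparisons could not be fitted so. Array weights gave 3 genes for mutant against wild-type, 2101 for wild-type KDM5A against empty vector and 1042 for knockout against parental. For mutant against wild-type, no filter gave 93 genes and 1 of the 10, a mean of at least 5 gave 3 genes, and quantile normalization 6. The cause of these shifts was not tested.

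Signs that turned were of small, uncalled log2 fold changes, except for NFKBIA in mutant against empty vector. For wild-type KDM5A against empty vector these were NFKB2 (-0.10 as deposited, -0.078 after quantile normalization) and RELA (-0.042 as deposited), and, with a library left out, NFKB2 (from -0.0039 to 0.030), NFKB1 (from -0.052 to 0.027) and REL (from -0.14 to 0.056). For mutant against empty vector they were TNFAIP3 (-0.30 as deposited) and BIRC3 (0.021 after quantile normalization), and, with a library left out, TNFAIP3 (from -0.026 to 0.080), BIRC3 (from -0.21 to 0.17) and NFKB1 (from -0.12 to 0.020); NFKBIA was -0.00033 as deposited. For mutant against wild-type they were NFKBIA (-0.095 as deposited), NFKBIB (-0.12 as deposited) and NFKB1 (0.0067 with the replicate block; from -0.097 to 0.042 with a library left out). Groups of 2 and 3 libraries and unknown depth limit what could be detected.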
